A study of Mus musculus with 3 samples.

Results

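The haem synthesis genes are the carrier and enzyme genes through which cells make haem, the iron-holding ring of haemoglobin, cytochromes and peroxidases. Members were the 9 genes Slc25a38, Alas1, Alas2, Alad, Uros, Urod, Cpox, Ppox and Fech, taken by gene symbol and described in pathway order. All 9 were found, each as 1 probe set, among 23185 genes with 1 symbol on the array. Levels came from cells labelled as LT-HSCs, from the marrow of female C57Bl/6 mice aged 8 to 10 weeks. LT-HSCs are long-term haematopoietic stem cells, which keep blood production going for life. The groups were mice given 8 Gy total body irradiation as FLASH, mice given 8 Gy at CDR, and non-irradiated mice, with 1 array each. FLASH is delivery at an ultra-high dose rate, and CDR was read as conventional dose rate, which the labels do not spell out. Per the labels, 10000 LT-HSCs were isolated for RNA, with day 15 after irradiation given as the time for each sample. As to the sorting gate and any pooling of mice, both were not given in the sources used here.

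Haem synthesis starts and ends in mitochondria, with the steps in between in the cytosol. Glycine and succinyl-CoA are joined by an aminolaevulinate synthase, encoded by Alas1 in most tissues and by Alas2 in red cell precursors, and this step sets the rate of the pathway. Red cell precursors make far more haem than other marrow cells, and the GATA1 and KLF1 transcription factors drive many of the genes they use for it.

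The promoters of 4 members are shown because they hold, or lack, AGATAA or TGATAA, forms of the GATA letters at which GATA1 and GATA2 can bind. Other forms, such as AGATAG, were not searched, counted or marked. The Cpox run and the Uros run below hold AGATAG on the reverse strand. They are Alas2, the red cell form of the first enzyme, Cpox and Alas1, the members with the largest differences between arrays, and Uros, which read the same on every array. Each run is the 250 bases before an annotated transcript start, 5′ to 3′ on the gene's strand, from RefSeq on GRCm38.p6. Capitals mark AGATAA or TGATAA on either strand.
Alas2 (chrX:150547167-150547416, plus strand): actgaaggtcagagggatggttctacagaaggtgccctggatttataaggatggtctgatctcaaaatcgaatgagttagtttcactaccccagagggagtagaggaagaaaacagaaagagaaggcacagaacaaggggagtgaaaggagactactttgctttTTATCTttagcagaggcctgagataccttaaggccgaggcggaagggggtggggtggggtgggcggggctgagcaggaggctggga
Cpox (chr16:58669958-58670207, plus strand): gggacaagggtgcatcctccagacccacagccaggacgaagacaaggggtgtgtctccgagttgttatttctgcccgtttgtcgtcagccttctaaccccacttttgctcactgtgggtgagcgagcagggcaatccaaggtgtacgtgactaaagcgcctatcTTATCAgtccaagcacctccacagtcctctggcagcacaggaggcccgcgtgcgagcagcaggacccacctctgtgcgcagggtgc
Uros, second start (chr7:133702501-133702750, minus strand): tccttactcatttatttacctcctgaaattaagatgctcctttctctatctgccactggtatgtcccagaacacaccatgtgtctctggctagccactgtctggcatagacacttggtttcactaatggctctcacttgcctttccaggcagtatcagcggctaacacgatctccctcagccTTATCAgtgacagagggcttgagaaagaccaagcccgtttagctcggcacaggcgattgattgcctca
Alas1, first start (chr9:106247955-106248204, minus strand): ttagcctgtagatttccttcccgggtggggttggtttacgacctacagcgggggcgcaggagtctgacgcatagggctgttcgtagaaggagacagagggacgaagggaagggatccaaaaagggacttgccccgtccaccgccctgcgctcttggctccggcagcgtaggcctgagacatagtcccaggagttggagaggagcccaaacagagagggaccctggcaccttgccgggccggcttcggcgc

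Of the 9 members, 8 had entries in the RefSeq promoter table, with 11 starts in all. AGATAA stood in 1 of the 11 windows, that of Alas2, against 9.99% of all 32851 windows of this length in the table. TGATAA, added to the search after the letters were seen, stood in 2, those of Cpox and of the second Uros start, against 7.94%. Either form stood in 16.6% of all windows. In Alas2 and in Cpox the match lay on the reverse strand, from base 86 to base 81 before the start. Cpox held a further AGATAA within the 50 bases after its start. The other letters searched on both strands were CCGCCC of SP and KLF factors, found in 6 of the 11 windows against 32.7% of all, CCAAT of NF-Y in 4 against 33.8%, the E-box CACGTG in 4 against 6.02%, and CACACCC of KLF factors in 1, that of Cpox, against 6.93%. The 2 Alad windows overlap and share letters, and in the second of them CCGCCC matches overlap each other. CAGTG, part of the loop of iron-responsive elements, was not found in the 50 bases after the annotated Alas2 start. A match describes these letters and is no evidence of binding, and no match says only that the letters are not in the window.

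**Figure D1:**
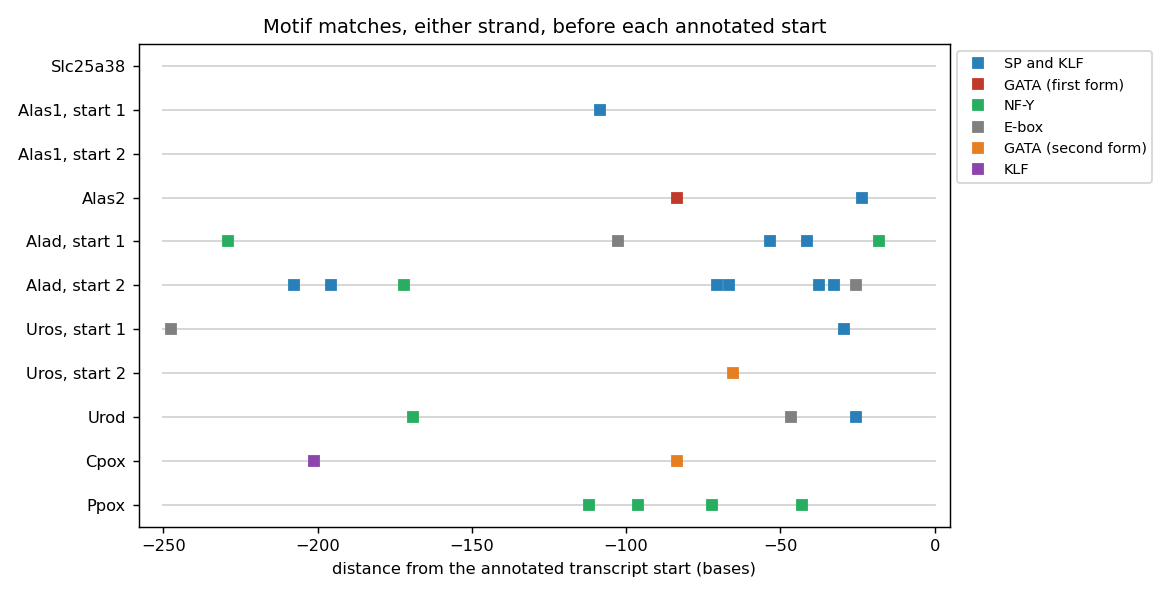
Matches of 6 motifs on either strand (squares, coloured by motif) in the 250 bases before each of 11 annotated starts of 8 members, with the distance from the start in bases on the x axis. The first GATA form is AGATAA and the second TGATAA. The matches of these forms in Alas2 and Cpox stand at the same distance, and the only other one lies before the second Uros start. Other GATA forms were not searched.

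Values are the authors' log2 levels, and a difference is a difference of log2 levels. A gene was taken as detected in a comparison when its higher array passed a level set by 1364 chemosensory receptor genes (olfactory, vomeronasal or trace amine), assumed silent in marrow. That level, the 95th percentile of those genes on the same array, was 4.22 with FLASH, 4.16 with CDR and 4.15 without irradiation. With 1 array per group there was no test and no replicate error, so that "higher" and "lower" describe these arrays. Exact ties between arrays were common in the deposited values. Over all 23185 genes, 39.8% had 1 value on all 3 arrays, and 54.1% were tied between FLASH and CDR. Among the members Uros was tied on all 3 arrays, Slc25a38, Urod and Fech on the FLASH and CDR arrays, and Ppox on the FLASH and non-irradiated arrays. A tie gives no measure of how alike the samples were.

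Comparing each irradiated array with the non-irradiated one asked how the pathway stood in cells labelled LT-HSCs 15 days after FLASH or CDR irradiation. Haem synthesis genes were at or above their non-irradiated level on both irradiated arrays, and none was lower. The genes furthest above it were Cpox on the FLASH array, at 1.84-fold, and Alas1 on the CDR array, at 1.73-fold. Fech, Alas2 and Slc25a38 were higher by less, and Alad, Urod, Ppox and Uros stood closest to the non-irradiated array. Positions below are those of the genes in RefSeq on GRCm38.p6, and the build behind the array's probe sets was not given in the sources used here.

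First in the pathway, the glycine carrier gene Slc25a38 (chr9:120110377-120126093), which brings glycine into mitochondria for the first enzyme, read 7.00 with FLASH, 7.00 with CDR and 6.75 without irradiation. Both irradiated arrays were thus higher by 0.25, or 1.19-fold. Alas1 (chr9:106233455-106247954), the housekeeping aminolaevulinate synthase, read 9.39 with FLASH, 9.72 with CDR and 8.93 without irradiation. It was higher by 0.45 with FLASH, or 1.37-fold, and by 0.79 with CDR. The CDR array held the highest Alas1 value and the non-irradiated array the lowest.

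Alas2 (chrX:150547417-150570622), the red cell aminolaevulinate synthase, read 4.62 with FLASH, 4.46 with CDR and 4.20 without irradiation. Its excess over the detection level was 0.40 with FLASH, 0.30 with CDR and 0.05 without irradiation. Its level was thus near that of unexpressed genes, and most so without irradiation. The differences from the non-irradiated array were 0.42 with FLASH, or 1.34-fold, and 0.26 with CDR, or 1.20-fold. With an offset of 32 added before the log, the difference was 0.17 with FLASH and 0.10 with CDR.

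Of the cytosolic steps, Uros and Urod varied least of all 9 members. Alad (chr4:62505984-62520063), which joins aminolaevulinate into porphobilinogen, read 9.21 with FLASH, 9.14 with CDR and 8.99 without irradiation, higher by 0.22 with FLASH and by 0.15 with CDR. Uros (chr7:133686142-133710467), which closes the ring to uroporphyrinogen III, read 6.06 on every array. Urod (chr4:116989965-116994436), which trims the side chains to coproporphyrinogen, read 8.56 on both irradiated arrays and 8.50 on the non-irradiated array, a difference of 0.06. The 3 genes together spanned differences of 0.00 to 0.22 from the non-irradiated array, within 1.16-fold.

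Of the late steps, Cpox had the widest span of any member. This coproporphyrinogen oxidase gene (chr16:58670208-58680391) read 8.79 with FLASH, 8.53 with CDR and 7.91 without irradiation. It was higher by 0.88 with FLASH and by 0.62 with CDR, or 1.54-fold. Ppox (chr1:171276991-171281193), whose product oxidises protoporphyrinogen to protoporphyrin, read 6.55 with FLASH, 6.75 with CDR and 6.55 without irradiation. Its only departure was 0.20 on the CDR array, or 1.15-fold. Fech (chr18:64456542-64489098), the ferrochelatase that inserts iron into the finished ring, read 7.63 on both irradiated arrays and 7.17 on the non-irradiated array, higher by 0.46, or 1.37-fold.

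**Figure D2:**
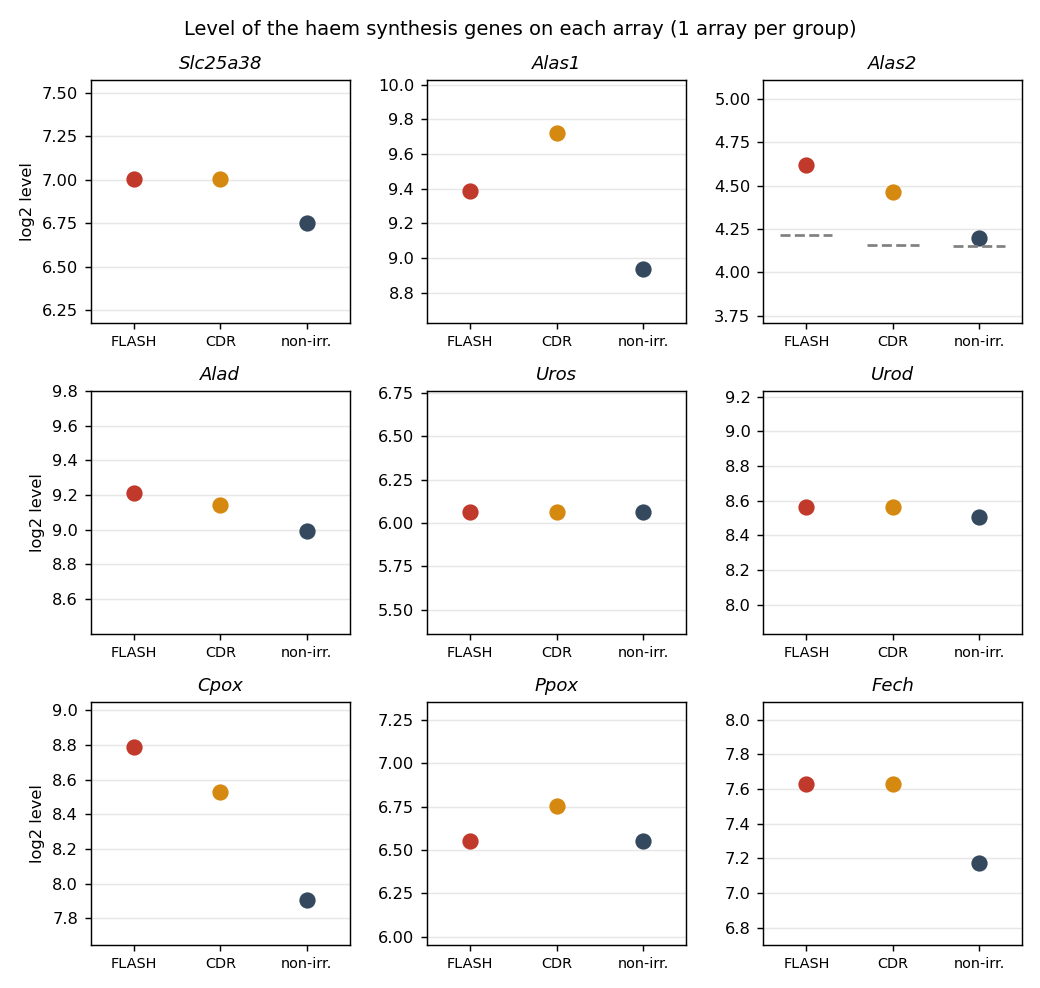
Deposited log2 level (y axis) of each member on the FLASH, CDR and non-irradiated arrays (x axis, 1 point per array), with every panel spanning the same range of log2 units and dashed lines for the detection level where it falls inside a panel. Cpox and Alas1 span the most, Uros is level at 6.06, and only Alas2 lies near the detection level.

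As a group, 7 of the 9 members were higher on the FLASH array than on the non-irradiated array, 2 were tied and 0 were lower. Over all 13288 detected genes in that comparison 33.8% were higher, 33% were lower and 33.2% were tied. On the CDR array 8 members were higher, 1 was tied and 0 were lower, where 34.7% of 13448 detected genes were higher, 30.4% lower and 34.9% tied. The member median was 0.25 with FLASH and 0.25 with CDR, and that of all detected genes was 0.00 in each comparison. Because of the ties these background shares depend on the scaling. With arrays centred on their medians, 9 of 9 members and 69.6% of detected genes were higher on the FLASH array, and 9 of 9 members and 74.6% of genes on the CDR array. Quantile normalisation put 58.8% of genes higher with FLASH and 60.5% with CDR, and cyclic loess 55.4% with FLASH and 51.9% with CDR.

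No member differed 2-fold on either irradiated array from the non-irradiated one. Genes 2-fold higher or more made up 1.17% of detected genes with FLASH and 0.766% with CDR, and genes 2-fold lower or more made up 1.75% with FLASH and 2.36% with CDR. At 3-fold, also with 0 members, the higher genes were 0.444% with FLASH and 0.149% with CDR, and the lower ones 0.557% with FLASH and 0.944% with CDR. At 1.5-fold, 1 of 9 members (Cpox) was higher on the FLASH array, against 3.59% of detected genes, and 2 of 9 (Alas1 and Cpox) on the CDR array, against 3.2%. With an offset of 32 added to the linear values Cpox was at 0.56 with CDR, under 1.5-fold, which left 1 of 9 there, against 1.73% of detected genes. None was 1.5-fold lower, against 5.3% of detected genes with FLASH and 5.38% with CDR. Both irradiated arrays were set against the same non-irradiated array, so that the 2 sets of differences share its error.

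Set among all detected genes, Cpox stood highest with FLASH, where 192 of 13288 genes, or 1.44%, had a difference at least as large. Fech was matched or passed by 5.55% of genes, Alas1 by 5.72% and Alas2 by 6.58%. With CDR, Alas1 was matched or passed by 210 of 13448 genes, or 1.56%, Cpox by 2.77% and Fech by 5.32%. The central 95% of all differences ran from -0.85 to 0.69 with FLASH and from -0.96 to 0.65 with CDR. Cpox lay outside that range on the FLASH array and Alas1 on the CDR array, while Cpox on the CDR array and every other difference lay within it.

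**Figure D3:**
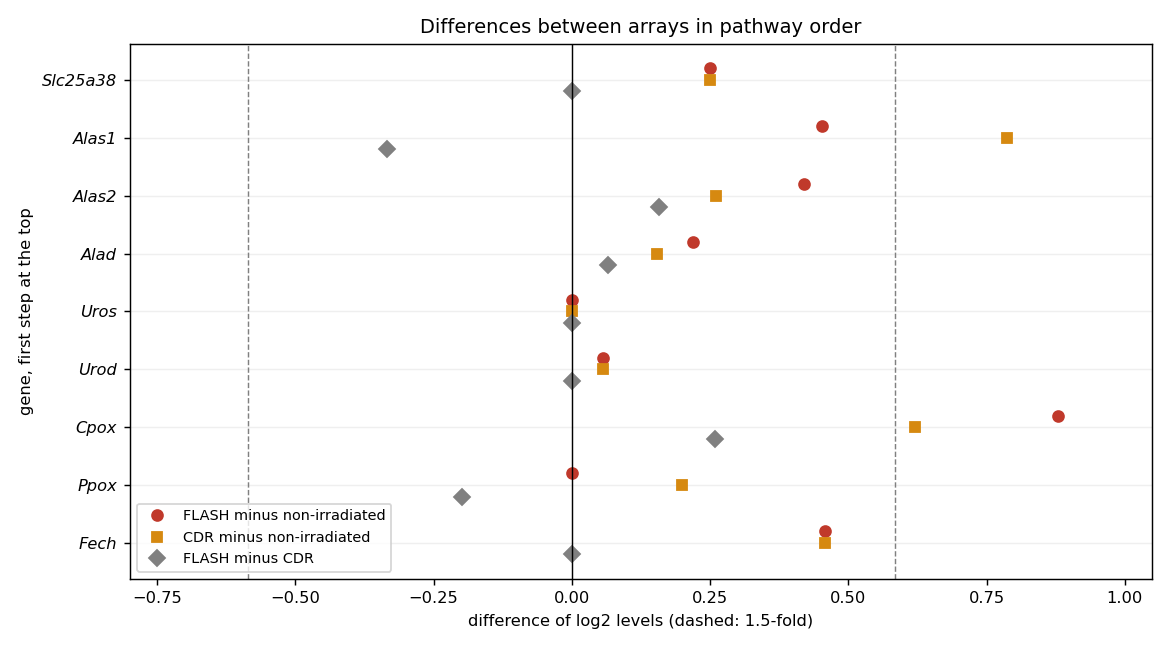
Difference of log2 levels (x axis) of each member in pathway order (y axis, first step at the top) for FLASH minus non-irradiated, CDR minus non-irradiated and FLASH minus CDR, with dashed lines at 1.5-fold. Relative to the non-irradiated array Cpox passes 1.5-fold with FLASH and with CDR, and Alas1 with CDR, and no FLASH minus CDR point does.

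Setting FLASH against CDR asked about dose rate with the dose held at 8 Gy. The members showed no common direction: 3 were higher on the FLASH array, 2 were lower and 4 were tied, with a median of 0.00. Over 13184 detected genes 25.6% were higher, 31.9% lower and 42.4% tied. Alas1 was lower on the FLASH array, with a difference of -0.33, or 1.26-fold, and 3.09% of detected genes had one at least as far down. Ppox was lower too, at -0.20. Cpox was higher on the FLASH array by 0.26, or 1.20-fold, and 5.20% of genes had a difference at least as large. Alas2 was higher by 0.16 and Alad by 0.07.

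All 9 members lay within the central 95% of FLASH minus CDR differences, from -0.37 to 0.46, and 0 reached 1.5-fold in either direction, where 1.85% of detected genes were higher and 0.781% lower by that much. At 2-fold, with 0 members, the shares were 0.85% higher and 0.144% lower, and at 3-fold, with 0 members, 0.516% higher and 0.0455% lower. The 2 aminolaevulinate synthase genes stood in opposite order on the irradiated arrays, Alas1 being higher with CDR and Alas2 with FLASH. The Alas2 difference was 0.07 with an offset of 32. The tied members took small differences under other scalings. Quantile normalisation put 6 of 9 members higher on the FLASH array, where 36.9% of detected genes were higher, and cyclic loess 7 of 9, where 56.2% were. Median centring put 6 of 9 lower, where 79.3% of detected genes were lower.

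**Figure D4:**
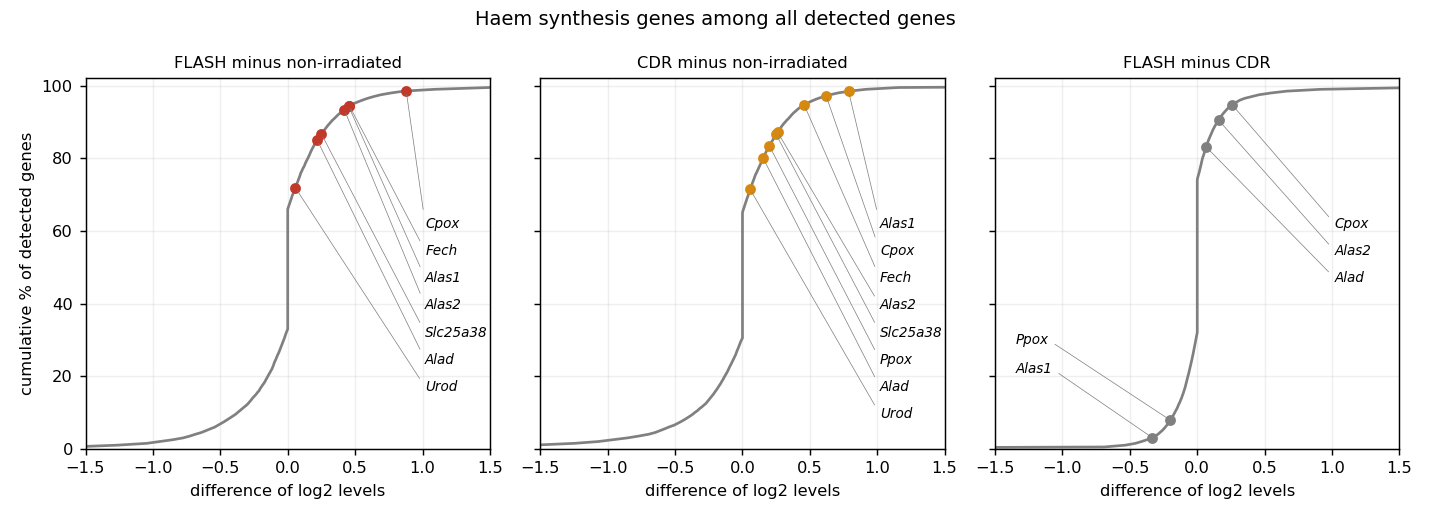
Cumulative percentage of detected genes (y axis) by difference of log2 levels (x axis) in the 3 comparisons, with members marked on the curve and tied members left out. Against the non-irradiated array every marked member lies right of 0, and Cpox with FLASH and Alas1 with CDR lie furthest right.

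For the 2 members with the widest span, the genes most like them were taken as those nearest by Euclidean distance between the pairs of differences from the non-irradiated array. This rested on 3 arrays and 12103 candidate genes. Nearest to Cpox was Cul2, a cullin scaffold of ubiquitin ligases, with 0.85 for FLASH and 0.59 for CDR at a distance of 0.040. Next came Ssx2ip, the chemokine gene Cxcl10, the pyridoxal kinase gene Pdxk and the lactate transporter gene Slc16a1, all within 0.069. Nearest to Alas1 was Rpp40, a ribonuclease P subunit gene, with 0.46 for FLASH and 0.81 for CDR at a distance of 0.018. It was followed by B4galnt1, the ubiquinone synthesis gene Coq7, the cathepsin gene Ctsz and Tlcd1, within 0.048.

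Genes around the pathway were taken from lists of substrate supply, iron supply, iron-sulphur assembly, porphyrin transport, and haem export and breakdown. Of all detected genes, 33.8% were higher and 33% lower with FLASH, and 34.7% higher and 30.4% lower with CDR. Under median centring 69.6% of them were higher with FLASH and 74.6% with CDR, and the lists were not recounted there. Of 10 substrate genes, 9 were higher on the FLASH array and 8 on the CDR array, 0 were lower, and the medians were 0.14 with FLASH and 0.18 with CDR. The glycine-producing enzyme gene Shmt2 was at 0.41 with FLASH and 0.57 with CDR, and Shmt1 at 0.35 with FLASH and 0.48 with CDR. Of 13 detected iron supply genes, 7 were higher and 1 lower with FLASH, 6 higher and 2 lower with CDR, and both medians were 0.00. Tfrc, the transferrin receptor through which haem-making cells take up iron, was the only one past 2-fold. It read 9.44 with FLASH, 9.31 with CDR and 8.13 without irradiation, higher by 1.31 with FLASH and 1.18 with CDR. The ferrireductase gene Steap3 was at 0.68 on both, while the mitochondrial iron carrier gene Slc25a37, mitoferrin 1, was at -0.18 with FLASH and -0.04 with CDR.

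Iron-sulphur assembly had 12 measured genes, with medians of 0.04 for FLASH and 0.09 for CDR, Iba57 at 0.59 on both, Glrx5 at 0.57 with FLASH and 0.36 with CDR, and the co-chaperone gene Hscb at -0.31 on both. Of 8 genes of porphyrin transport and enzyme partners, 5 were higher and 1 lower with FLASH, and 5 higher and 2 lower with CDR, with medians of 0.14 for FLASH and 0.20 for CDR. The mitochondrial transporter gene Abcb10 was at 0.48 with FLASH and 0.47 with CDR, and Abcb6 at 0.49 on both. The porphyrin exporter gene Abcg2 was at 0.00 with FLASH and -0.21 with CDR, and Pgrmc1, whose product binds ferrochelatase, was at -0.04 on both. Haem export, use and breakdown had 14 detected genes, 7 higher and 5 lower on each irradiated array. The haem exporter gene Flvcr1 was at 0.65 with FLASH and 0.99 with CDR. Blvrb, a biliverdin reductase, was at 0.81 with FLASH and 0.56 with CDR. Hmox1, the haem oxygenase that breaks haem down, read 8.16 with FLASH, 7.99 with CDR and 8.87 without irradiation, a difference of -0.70 with FLASH and -0.88 with CDR. Bach1, a haem-sensing repressor of Hmox1, was at -0.22 with FLASH and -0.24 with CDR.

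**Figure D5:**
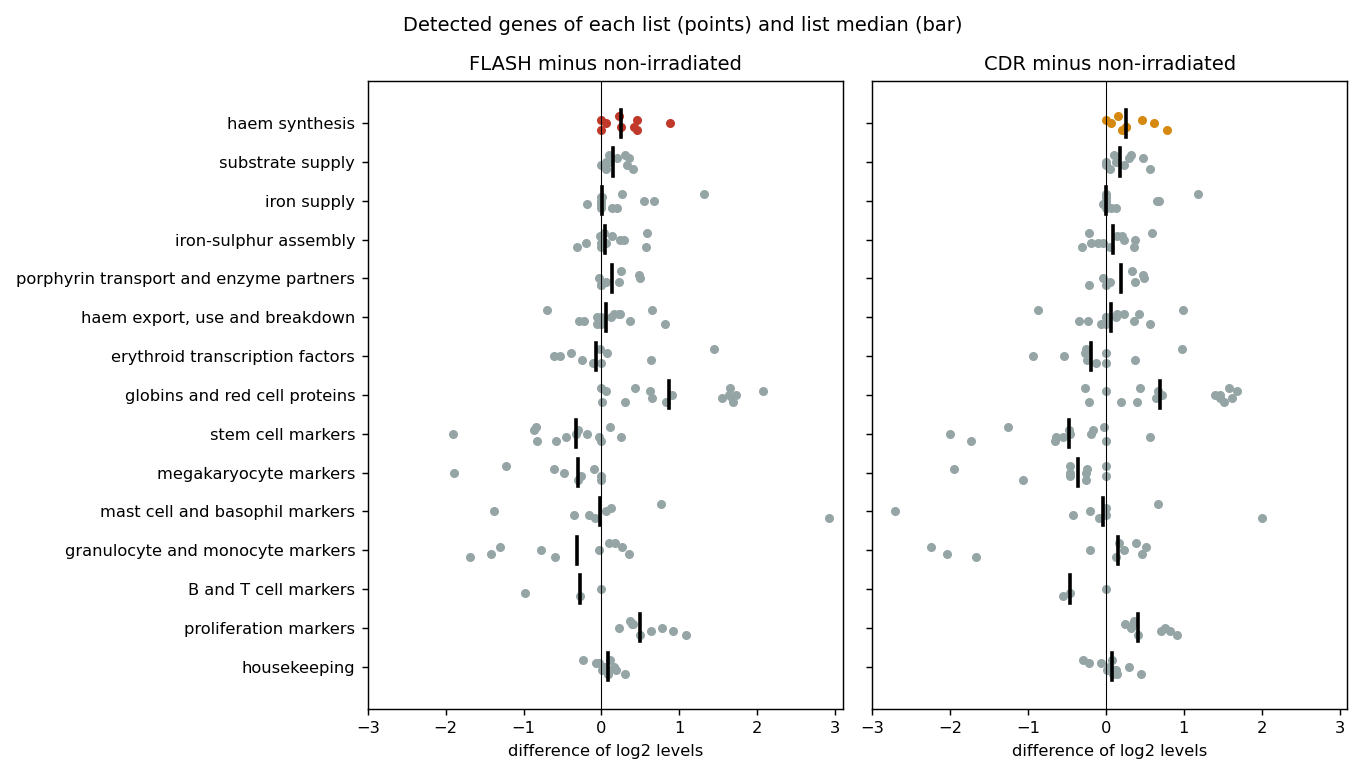
Difference of log2 levels (x axis) of each detected gene (points) and the list median (bar) for FLASH minus non-irradiated (left) and CDR minus non-irradiated (right), with the haem synthesis genes coloured. Their median of 0.25 lies below that of red cell genes on both irradiated arrays.

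Markers of red cells and of proliferation were higher on the same arrays as the haem synthesis genes, and most stem cell markers were lower there. Their part in the haem gene differences was not tested, and in such bulk samples a change in the share of cells of a type and a change of RNA per cell cannot be told apart. Of 16 detected globin and red cell genes, 15 were higher on the FLASH array and 13 on the CDR array. Their medians were 0.87 with FLASH and 0.69 with CDR. Of all detected genes 33.8% were higher with FLASH and 34.7% with CDR. Their summed linear level below is that of the globin and red cell list. Of 26 listed genes 19 were measured. The summed linear level over all 19 measured globin and red cell genes was 5998 with FLASH, 5507 with CDR and 4032 without irradiation. Car1 and Car2 had the highest levels and weigh most in that sum. Car2 was at -0.01 with FLASH and -0.28 with CDR, and Gypc at 0.01 with FLASH and -0.21 with CDR. No other detected gene of the list was lower. Hbb-bs, an adult beta globin, read 7.26 with FLASH, 7.09 with CDR and 5.58 without irradiation. Rhag, a blood group protein of the red cell membrane, read 7.37 with FLASH, 7.32 with CDR and 5.70 without irradiation. No marker was listed at 0, and Epb42 and the embryonic globins Hbb-bh1 and Hbb-y stayed under the detection level on every array. The summed linear level of the 9 haem synthesis genes was 2593 with FLASH, 2680 with CDR and 2033 without irradiation.

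Among 10 erythroid transcription factor genes, 3 were higher and 6 lower with FLASH, and 2 higher and 6 lower with CDR. Their medians were -0.07 with FLASH and -0.19 with CDR. Over all detected genes the shares were 33.8% higher and 33% lower with FLASH, and 34.7% higher and 30.4% lower with CDR. Klf1 read 7.59 with FLASH, 7.13 with CDR and 6.15 without irradiation. Gata1 read 8.75 with FLASH, 8.48 with CDR and 8.11 without irradiation. Gata2, which acts earlier, in stem and progenitor cells, read 9.43 with FLASH, 9.11 with CDR and 10.04 without irradiation. Nfe2 was lower too, at -0.53 with FLASH and -0.54 with CDR. Of 9 measured proliferation genes all 9 were higher on each irradiated array, with medians of 0.49 for FLASH and 0.42 for CDR. Mki67 read 9.54 with FLASH, 9.55 with CDR and 9.18 without irradiation. Of 13 measured stem cell markers, 10 were lower on the FLASH array and 11 on the CDR array. Their medians were -0.33 with FLASH and -0.47 with CDR. Their summed linear level was 2071 with FLASH, 2097 with CDR and 3825 without irradiation. High readers weigh most in that sum, such as Kit, at 9.38 with FLASH and 9.78 with CDR. On the FLASH array 8 markers were higher than on the CDR array and 3 lower, against 25.6% and 31.9% of detected genes. Procr, a surface marker of LT-HSCs, read 6.33 with FLASH, 5.42 with CDR and 7.15 without irradiation, above the detection level throughout. Hlf, a factor of stem cell maintenance, read 8.02 with FLASH, 7.92 with CDR and 9.92 without irradiation. Gfi1 went the other way, at 0.25 with FLASH and 0.56 with CDR. Slamf1 was at 0.11 with FLASH and -0.02 with CDR. Of 10 measured megakaryocyte markers 0 were higher on either irradiated array, 7 being lower with FLASH and 8 with CDR. Of the 8 measured B and T cell markers 3 were above the detection level on each array. Of 8 measured mast cell and basophil markers 4 were higher and 4 lower with FLASH, and 2 higher and 4 lower with CDR. Of 10 detected granulocyte and monocyte markers 4 were higher and 6 lower with FLASH, and 6 higher and 4 lower with CDR. Without irradiation Ctsg read 11.57 and Prtn3 11.38, above each of the 13 measured stem cell markers. Those are readings of different probe sets, and RNA amounts were not compared between genes. Ngp read 6.47 and Camp 5.90 without irradiation. Ngp was at -1.69 with FLASH and -1.67 with CDR, and S100a9 at -1.31 with FLASH and -2.25 with CDR. Camp was at -1.42 with FLASH and -2.05 with CDR, where it read 3.86, under the detection level. These 3 of 10 were 2-fold lower or more on each, and 0 were 2-fold higher. Of all detected genes, 1.75% were that much lower with FLASH and 2.36% with CDR. Of 12 measured housekeeping genes, 9 were higher and 3 lower on each irradiated array. Their median was 0.08 on each, and they summed to 19844 with FLASH, 20054 with CDR and 19561 without irradiation.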

How the data were processed

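The series holds 3 arrays, 1 per group, of total RNA labelled with biotin by an Affymetrix whole-transcript kit, per the labels' protocols. The deposited table gives the authors' level of 25206 probe sets, taken as log2 from the range of its values. Partek, with no version, is named in the submitters' processing notes. How background was corrected and arrays were normalised was not given in the sources used here. Probe sets were named by the platform's probe table, in which 23185 had 1 symbol, and the other 2021 were left out. Gene positions and promoters came from RefSeq on GRCm38.p6.

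Deposited log2 values were used unchanged, and detection, fold and counts were computed from them. The number of arrays limits the precision. Members, gene lists and rules were chosen with earlier results of these data known. The genes named are all 9 members, up to 2 in each direction from each related list, a few fixed regulators, and the 5 genes nearest to the 2 members of widest span. Epb42, Hbb-bh1, Hbb-y and the haem-carrying proteins were picked after their values were seen. Protein sequences were not analysed here. Other settings tried were 3 scalings (median centring, and quantile and cyclic loess by limma 3.58.1 in R 4.3.3), 32 added to linear values, detection left out or set at the 99th percentile of the silent genes by the mean level, thresholds of 1.5-fold and 3-fold, and means. Python 3.11.15, numpy 2.4.6, pandas 2.3.3 and matplotlib 3.10.9 were used.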

Additional observations from a re-analysis of the deposited data

How the results depend on the processing

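The counts of members past 2-fold were 0 in the 3 comparisons under each scaling, offset and filter tried and with a threshold of 3-fold. Lowering the threshold to 1.5-fold gave 1 member higher with FLASH and 2 with CDR against non-irradiated, and 0 for FLASH against CDR. With an offset of 32, the count at 1.5-fold with CDR was 1 instead of 2, Cpox being at 0.56, and the share of detected genes was 1.73%. That offset also took Alas2 to 0.17 for FLASH minus non-irradiated and 0.10 for CDR minus non-irradiated. Between the FLASH and CDR arrays, quantile normalisation gave 6 members higher and cyclic loess 7, in place of 3, against 36.9% of detected genes with quantile normalisation and 56.2% with cyclic loess. Median centring gave 6 lower in place of 2, against 79.3% of detected genes. The member median ran from 0.20 to 0.27 for FLASH minus non-irradiated, from 0.15 to 0.31 for CDR minus non-irradiated and from -0.03 to 0.01 for FLASH minus CDR, over the scalings, offset and filters. The mean was 0.30 for FLASH minus non-irradiated, 0.31 for CDR minus non-irradiated and -0.01 for FLASH minus CDR. The spread used to judge these shifts was the SD of differences among unexpressed genes, 0.21 for FLASH minus non-irradiated, 0.21 for CDR minus non-irradiated and 0.18 for FLASH minus CDR, since there were no replicates. No member that differed between 2 arrays as deposited took the opposite sign under any scaling or offset. A tied member has no sign to keep. For FLASH minus CDR, Slc25a38, Urod and Fech were at -0.03 with median centring. They were at 0.01 with quantile normalisation and with cyclic loess. Under the stricter filter Alas2 was left out, as its level is near that of unexpressed genes. No paired analysis was possible because each group has 1 array.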

Other observations

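Proteins that carry haem were looked at as a list chosen after the data were seen. Of 14 detected genes, the median difference from the non-irradiated array was 0.00 with FLASH and 0.00 with CDR. Cyc1, the cytochrome c1 gene of the respiratory chain, read 9.68 with FLASH, 9.64 with CDR and 9.18 without irradiation. Cyb5b, an outer mitochondrial membrane cytochrome gene, read 8.49 with FLASH, 8.40 with CDR and 8.13 without irradiation. Tbxas1, the thromboxane synthase of platelets and macrophages, was the one gene past 2-fold, at -1.23 with FLASH and -1.18 with CDR. Of all detected genes, 1.75% were 2-fold lower or more with FLASH and 2.36% with CDR. The catalase gene Cat was tied between the CDR and non-irradiated arrays and differed by -0.14 with FLASH.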
